A study of Mus musculus with 29 samples.

Results

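The genes for the proteins of the mitochondrial ribosome were followed in prefrontal cortex of mice at postnatal day 40. Members were all genes of the deposited table with a mouse symbol of Mrpl or Mrps and a number. The letters stand for the large and the small subunit, but the products of Mrps18a and Mrps30 sit in the large one and are counted there below. Pseudogenes were left out, and a value of at least 10 was required in at least 3 libraries. This gave 78 genes, 49 Mrpl and 29 Mrps, among 17881 genes tested and 18240 in the table. All 78 passed the filter, and 0 genes with such a symbol fell below it. The libraries came from C57BL/6J mice of both sexes, and the labels give 1 batch for all. Heterozygous mice, here HT, carry 1 copy of Tbr1 with the K228E change. Lithium went to 3 HT females and 4 HT males, fluoxetine to 4 HT females and 4 HT males, and vehicle to 3 HT females and 3 HT males. The controls, here WT, were 4 wild-type females and 4 wild-type males on vehicle. All 3 HT groups carry the allele, and a WT group given a drug was not analysed here, so a drug difference is a difference within HT mice. Dose, route and duration are not given in the sources used here.

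Mitochondria hold their own ribosome, which translates the few respiratory chain subunits encoded in mitochondrial DNA. Its RNAs are encoded there too, while all of its proteins are encoded in the nucleus, made in the cytosol and imported. Some of these proteins have bacterial counterparts and others arose with the organelle. The cortex depends on oxidative phosphorylation, and inherited loss of several of these proteins causes combined oxidative phosphorylation deficiency in humans. Lithium is a mood stabiliser, and fluoxetine is an antidepressant that blocks serotonin reuptake. Tbr1 is a transcription factor of deep-layer cortical neurons.

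The deposited values are read counts divided by 1 size factor per library, called normalised counts here, and the recovered reads summed to between 22808894 and 31711931 per library. Slc17a7, the vesicular glutamate transporter of cortical excitatory neurons, was high in every library, at 32387 to 47980. Tbr1 itself lay between 2151 and 4766, and these counts do not separate its alleles. By markers of neighbouring regions 11 libraries stood apart, with a striatal or olfactory marker mean more than 1 log2 unit above the median of all libraries: female 2 and male 2 of the HT lithium group, females 1 and 2 and males 1, 2 and 4 of the HT fluoxetine group, male 1 of the HT vehicle group, and females 1 and 3 and male 3 of the WT group. The summed level of 13 striatal markers, all detected, spanned 6621 to 25601 in HT fluoxetine females and 7449 to 23852 in HT fluoxetine males, against 6675 to 8405 in HT vehicle females and 7568 to 8452 in HT vehicle males. That of 10 olfactory markers spanned 2733 to 21298 in HT fluoxetine females and 3482 to 9139 in HT fluoxetine males, against 4510 to 13836 in HT vehicle females and 7104 to 15830 in HT vehicle males. In bulk tissue, fewer cells of a type and less RNA per cell cannot be told apart. Nothing in the labels says whether libraries of a group came from separate animals, so p-values measure the spread between these libraries only.

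Every one of the 78 genes was well above the detection limit in every library. The lowest value of any member was 92.8, in Mrpl23, and member means ran between 131 for Mrpl23 and 1582 for Mrpl3. Divided by the length of all exons, the members had a median of 247 normalised counts per kb, against 99.8 for all genes tested, and 67 of 78 members lay above that median. The highest levels per kb were those of Mrps21 (914 ± 55.6, SD over 29 libraries), a small-subunit protein with a bacterial counterpart, and Mrpl41 (893 ± 56.9), a large-subunit protein specific to mitochondria. They were followed by Mrpl27 (753 ± 65.6), whose bacterial counterpart reaches into the peptidyl transferase centre, Mrpl12 (729 ± 52.0), a protein of the stalk that recruits translation factors, Mrps33 (691 ± 37.9) and Mrps12 (630 ± 54.1), whose counterpart lines the decoding site. Mrps21 and Mrpl41 overlapped each other's SD, as did Mrpl27 and Mrpl12, Mrpl12 and Mrps33, and Mrps33 and Mrps12. The lowest levels per kb were 26.9 ± 4.8 for Mrpl23, 49.9 ± 2.5 for Mrps35, 54.2 ± 4.4 for Mrpl33, 62.1 ± 3.5 for Mrps10, 63.2 ± 3.8 for Mrps30 and 65.2 ± 5.1 for Mrpl13. Mrpl23, whose bacterial counterpart sits at the exit of the peptide tunnel, was thus 34.0-fold below Mrps21. With the length of the longest transcript in place of all exons, 5 of the 6 highest and 3 of the 6 lowest members were the same.

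**Figure D1:**
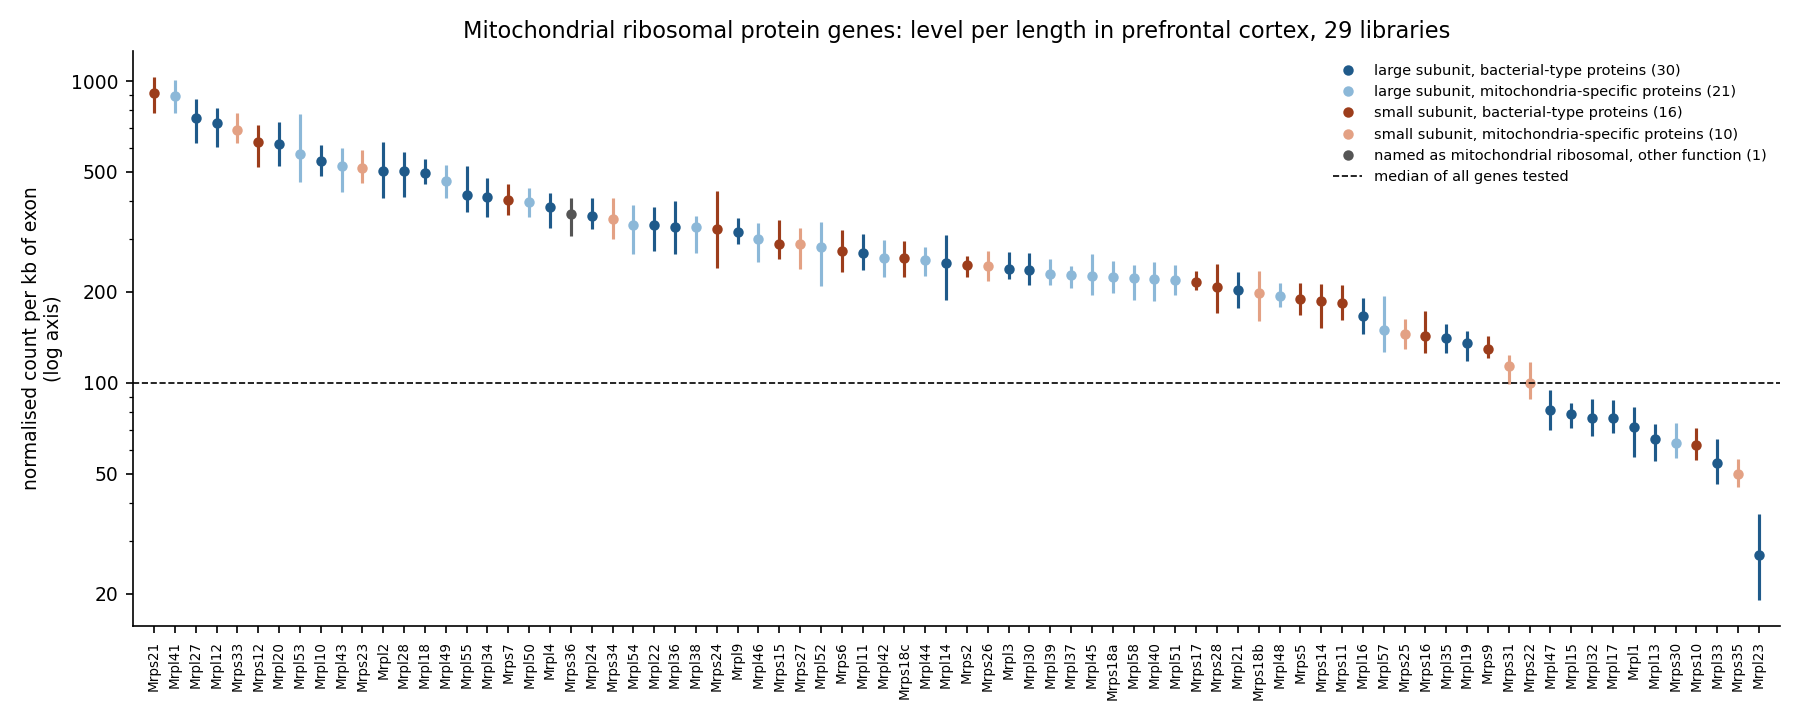
Level of each of the 78 genes in normalised counts per kb of exon on a log axis; points are means over 29 libraries, vertical lines span the lowest to the highest library, and colours mark the class of the protein. The dashed line is the median of all genes tested (99.8), and 67 members lie above it.

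Median levels of the structural classes lay close to each other. The median per kb was 259 for 30 large-subunit proteins with bacterial counterparts, 256 for 21 large-subunit proteins specific to mitochondria, 231 for 16 small-subunit proteins with bacterial counterparts and 222 for 10 small-subunit proteins specific to mitochondria. The remaining gene, Mrps36, at 364 ± 25.04 per kb, carries a ribosomal name, but its product is now assigned to the 2-oxoglutarate dehydrogenase complex.

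The members varied little between libraries of a group. The median residual SD on the log2 scale was 0.0903, against 0.132 for all genes tested and 0.1098 for the 7884 genes in the same range of mean values; 63 of 78 members lay below the last of these. Mrpl35 had the smallest residual SD (0.0508), followed by Mrps9 (0.0539), Mrpl37 (0.0542), Mrpl9 (0.0558) and Mrps17 (0.0582). The largest were those of Mrpl23 (0.248), Mrpl52 (0.158), Mrps24 (0.157), Mrpl53 (0.145) and Mrps28 (0.144). Mrpl23 is also the member with the fewest reads, and its pseudogene Mrpl23-ps1 on chromosome 2, which is no member, had higher values (250 to 385, median 308) than Mrpl23 in any library (92.8 to 179.5). How reads were shared between that pair by the authors' counting is not given in the sources used here, so values of Mrpl23 are uncertain. Further, 24 members share exon bases with another gene of the table, so their values may hold reads of a neighbour. On the same strand these are Mrpl3, Mrps6, Mrps18c, Mrps24 and Mrps34. On the opposite strand alone they are Mrpl13, Mrpl14, Mrpl18, Mrpl19, Mrpl21, Mrpl24, Mrpl36, Mrpl43, Mrpl44, Mrpl46, Mrpl47, Mrpl48, Mrpl49, Mrpl53, Mrps7, Mrps11, Mrps18b, Mrps25 and Mrps30, and the strand setting of the authors' counting is not given in the sources used here. Mrpl46 and Mrps11 overlap each other, over 173 bases.

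The 78 genes lie on 17 chromosomes, and their promoters were read from RefSeq (build GRCm38.p6) to see what sequence they share. For 69 members a window was found that runs from 250 bases before to 50 bases after the annotated start. Short motifs of factors known for housekeeping and respiratory genes were searched on both strands: GCGCATGCG or GCGCACGCG (NRF1), CCGGAAGT (the ETS family, which includes GABP), AAGATGGCG (YY1) and CACGTG (the E-box). The NRF1 letters were present in 10 windows (14.5%, exact 95% interval 7.17 to 25.04), against 3.48% of 27025 RefSeq windows of the same length. Those 27025 windows were not limited to genes tested here, while all members passed the filter, and a background of tested genes alone was not counted. The ETS letters were in 11 (15.9%, 8.24 to 26.7) against 4%, and the YY1 letters in 8 (11.6%, 5.14 to 21.6) against 1.49%. The E-box was in 5 (7.25%, 2.39 to 16.1) against 7.24%, so its share was that of all promoters. At least 1 of the first 3 motifs stood in 28 of 69 windows. The share of all RefSeq windows with at least 1 of them was not counted, so this number has no background beside it. No match says only that these letters are not in this window. The windows of 5 members are shown because the results below turn on Mrpl36, Mrpl35 and Mrpl1, and because Mrpl9 and Mrps27 carry the NRF1, ETS and YY1 letters. Capitals mark every match of the 4 motifs, on either strand.
Mrpl36, chr13:73330759-73331058, plus strand: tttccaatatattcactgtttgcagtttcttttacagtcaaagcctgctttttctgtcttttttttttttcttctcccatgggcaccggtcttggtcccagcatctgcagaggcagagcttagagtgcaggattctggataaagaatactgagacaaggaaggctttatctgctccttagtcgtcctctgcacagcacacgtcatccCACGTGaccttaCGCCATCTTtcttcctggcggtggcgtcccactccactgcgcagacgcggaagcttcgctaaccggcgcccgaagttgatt
Mrpl35, chr6:71823735-71824034, minus strand: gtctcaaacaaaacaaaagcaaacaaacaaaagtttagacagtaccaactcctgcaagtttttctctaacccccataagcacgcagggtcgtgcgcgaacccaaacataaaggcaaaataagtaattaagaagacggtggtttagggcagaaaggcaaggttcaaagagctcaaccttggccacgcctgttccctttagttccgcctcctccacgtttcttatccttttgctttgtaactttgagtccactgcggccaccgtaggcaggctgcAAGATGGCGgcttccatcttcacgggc
Mrpl9, chr3:94443086-94443385, plus strand: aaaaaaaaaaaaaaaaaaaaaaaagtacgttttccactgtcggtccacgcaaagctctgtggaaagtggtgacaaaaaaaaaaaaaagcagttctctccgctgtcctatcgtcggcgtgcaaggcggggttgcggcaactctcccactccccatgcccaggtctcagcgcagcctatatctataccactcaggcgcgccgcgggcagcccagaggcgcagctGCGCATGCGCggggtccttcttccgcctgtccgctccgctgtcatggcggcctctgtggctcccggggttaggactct
Mrps27, chr13:99344536-99344835, plus strand: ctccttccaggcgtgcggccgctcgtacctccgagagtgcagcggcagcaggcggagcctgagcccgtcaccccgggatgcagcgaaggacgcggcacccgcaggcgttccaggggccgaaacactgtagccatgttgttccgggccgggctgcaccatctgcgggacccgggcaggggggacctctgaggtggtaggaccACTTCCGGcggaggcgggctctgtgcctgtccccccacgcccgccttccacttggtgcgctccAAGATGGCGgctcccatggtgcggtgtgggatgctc
Mrpl1, chr5:96209865-96210164, plus strand: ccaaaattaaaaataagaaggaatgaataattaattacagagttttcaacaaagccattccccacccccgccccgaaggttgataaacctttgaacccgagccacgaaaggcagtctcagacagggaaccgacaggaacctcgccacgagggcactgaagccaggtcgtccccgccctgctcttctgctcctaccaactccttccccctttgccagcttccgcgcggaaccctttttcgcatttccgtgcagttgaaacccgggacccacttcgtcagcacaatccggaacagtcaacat
Mrpl36 holds the E-box and the YY1 letters, Mrpl35 the YY1 letters just after the start, Mrpl9 a palindromic NRF1 match, Mrps27 the ETS and the YY1 letters, and Mrpl1 none of the 4. The RefSeq start of Mrpl20, a gene described below, lies 643 bases upstream of the start of its principal coding transcript, so its window is not shown. For 55 of 69 windows the RefSeq start and that of the principal coding transcript lay within 100 bases of each other.

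The genotype comparison asks how HT mice given vehicle differ from WT mice given vehicle. No member passed the test between genotypes. The members' median log2 difference (HT vehicle minus WT vehicle, both sexes) was 0.0031, with 40 members positive and 38 negative, and the extremes were -0.12 and 0.13. Limma with Benjamini-Hochberg adjustment over all genes called 0 of the 78 and 0.207% of all genes tested; 4 members had an unadjusted p under 0.05, against 12.3% of all genes, and edgeR and DESeq2 called 0 members as well. Mrpl35, a large-subunit protein with a bacterial counterpart, had the smallest p. It stood at 525, 568.1, 538, 542, 571 and 559 normalised counts in HT vehicle mice, against 600, 589, 590, 585, 604, 587, 614 and 607 in WT mice. All 6 HT vehicle libraries were below all 8 WT libraries, but the difference of -0.12 ± 0.034 (SE) had a limma adjusted p of 0.130. The share of all genes that separate the genotypes in this way was not counted. The other 3 with an unadjusted p under 0.05 were Mrpl55 (0.13 ± 0.051, adjusted p = 0.275), Mrpl4 (0.10 ± 0.044, adjusted p = 0.363) and Mrpl1 (-0.11 ± 0.051, adjusted p = 0.386). Mrps36 stood at -0.10 ± 0.051, Mrpl42 at -0.09 ± 0.054, Mrpl2 at 0.10 ± 0.060 and Mrps26 at 0.08 ± 0.045.

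Within each sex, the smallest p of the genotype comparison was that of Mrpl1 in males; the bacterial counterpart of its product forms the mobile stalk beside the exit site for tRNA. Mrpl1 had 292, 278 and 244 normalised counts in HT vehicle males, against 355, 350, 358 and 319 in WT males. The male groups did not overlap, and their difference was -0.35 ± 0.072 (limma adjusted p = 0.137). In females it had 308, 329 and 311 in HT vehicle mice, against 308, 276, 285 and 284 in WT mice, a difference of 0.13 ± 0.072 (adjusted p = 0.720). The female minus male difference between these was 0.48 ± 0.102 with an adjusted p of 0.847. Without WT vehicle male 4 the male difference of Mrpl1 passed (-0.39, limma adjusted p = 0.024). The share of all genes called in that fit is not given here, so this call has no background beside it. The number of all genes called in males, 0 as reported, also rose when 1 library was left out, so the call may not be particular to Mrpl1. Over all members the median was 0.022 in females (48 positive, 2 members at an unadjusted p under 0.05 against 7.45% of all genes) and -0.026 in males (51 negative, 9 members against 11.1%). The female minus male difference had a median of 0.029 (51 positive, 5 members against 5.6%). In these 3 comparisons limma called 0 members and 0% of all genes; edgeR and DESeq2 called 0 members. The other members named here were Mrpl35, Mrpl55, Mrps11 and Mrpl42 in females (-0.12, 0.17, 0.14 and -0.15), Mrps18c, Mrpl4 and Mrpl10 in males (-0.23, 0.17 and 0.13), and Mrps18c, Mrpl10 and Mrps18a between sexes (0.37, -0.17 and -0.18), with adjusted p-values of 0.271 to 0.847.

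The drug comparisons set HT mice given lithium or fluoxetine against HT mice given vehicle, and both share the HT vehicle libraries with the genotype comparison. Over both sexes neither drug moved the members past the test. For lithium the median was 0.024 (52 positive, 26 negative), with 2 members at an unadjusted p under 0.05 against 11.4% of all genes. For fluoxetine it was 0.017 (46 positive, 32 negative), with 3 members against 7.81%. Lithium minus fluoxetine gave 0.012 (47 positive), with 1 member against 3.5%. In each of the 3, limma called 0 members and 0% of all genes, and edgeR and DESeq2 called 0 members. Mrpl35 had the smallest p in both comparisons with vehicle. It had 582, 603, 652, 592, 567, 619 and 632 normalised counts under lithium and 583, 644, 599, 593, 569, 577, 578 and 582 under fluoxetine, against the HT vehicle values of 525 to 571 given above. Lithium minus vehicle was 0.14 ± 0.035 (limma adjusted p = 0.247), and fluoxetine minus vehicle was 0.10 ± 0.034 (adjusted p = 0.467). Most libraries of either drug lay above the whole HT vehicle range; the exceptions were HT lithium male 2 and HT fluoxetine male 1, and several of the others reached the WT range of 585 to 614.

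Few other members came near the test in the drug comparisons. For fluoxetine, Mrps14, a small-subunit protein with a bacterial counterpart, stood at 0.15 ± 0.051 (adjusted p = 0.478) and Mrpl58, a peptidyl-tRNA hydrolase built into the large subunit, at -0.08 ± 0.036 (adjusted p = 0.613). Mrps18c (0.10), Mrps31 (0.08), Mrpl52 (-0.16), Mrpl55 (-0.10) and Mrpl57 (-0.12) followed, with adjusted p-values of 0.636 to 0.679. For lithium, Mrps21 (0.10 ± 0.042, adjusted p = 0.391) came next, then Mrpl9 (0.07), Mrps6 (0.13), Mrpl52 (-0.16), Mrps9 (-0.06), Mrpl57 (-0.11) and Mrpl27 (-0.08) at adjusted p-values of 0.471 to 0.596. For lithium minus fluoxetine, Mrpl14 (0.15), Mrpl55 (0.10), Mrps16 (0.09), Mrpl49 (0.06), Mrpl27 (-0.10), Mrps18c (-0.08), Mrps10 (-0.06) and Mrps28 (-0.10) all had an adjusted p of 0.985. Mrpl1 stood at 0.05 ± 0.053 under lithium, at 0.06 ± 0.051 under fluoxetine and at -0.01 ± 0.049 between the drugs.

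Set against WT vehicle instead, the median was 0.031 in HT lithium mice (53 positive) and 0.0085 in HT fluoxetine mice (49 positive). Lithium minus WT called 1.9% of all genes and 0 members by limma, edgeR or DESeq2, with 7 members at an unadjusted p under 0.05 against 18.6% of all genes. Fluoxetine minus WT called 0.19% of all genes and 0 members by any of the 3 tools, with 3 members against 9.26%. Mrpl37, a large-subunit protein specific to mitochondria, was first in both, at 0.09 ± 0.032 (limma adjusted p = 0.123) for lithium and 0.08 ± 0.031 (adjusted p = 0.443) for fluoxetine. Mrpl55 (0.13), Mrpl27 (-0.12) and Mrps10 (-0.09) followed for lithium, and Mrps7 (0.09), Mrps36 (-0.09) and Mrpl57 (-0.10) for fluoxetine. Mrpl1 stood at -0.06 for lithium and -0.05 for fluoxetine. The number of all genes called, set beside the members' counts here, moved widely when 1 library was left out. For lithium minus WT, 340 genes were called as reported, 85 without HT lithium female 3 and 723 without WT vehicle male 4. For fluoxetine minus WT it was 34 as reported, 10 without HT fluoxetine female 4 and 98 without HT fluoxetine female 1. For genotype it was 37 as reported, 2 without HT vehicle female 1 and 176 without WT vehicle male 4. For the fluoxetine difference between the sexes, described next, it was 19 as reported, 4 without HT vehicle female 3 and 50 without HT fluoxetine female 2.

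Without covariates, the fluoxetine difference had a negative median over the members in females and a positive one in males. With the short-gene shift of each library as a covariate, a setting described further on, the female median turned positive as well (0.01 in females, with 34 of 78 negative, and 0.04 in males). Without it, in females the median of the members was -0.05, with 59 of 78 negative, and 21 had an unadjusted p under 0.05 against 11.9% of all genes. In males it was 0.08, with 74 of 78 positive, and 14 had an unadjusted p under 0.05 against 10% of all genes. Negative in females and positive in males were 57 genes, 17 were positive in both, 2 were negative in both, and Mrps5 and Mrps10 were positive in females and negative in males. Within a sex limma called 0 members, with 0.028% of all genes called in females and 0% in males. The number of all genes limma called in females was 5 as reported, and ran from 0 to 87 when 1 library was left out. EdgeR called 0 members in either sex, and DESeq2 called 1 in females, Mrpl58, and 0 in males. The share of all genes that DESeq2 called in females is not given here, so its call of Mrpl58 has no background beside it. Tested between the sexes, 1 member passed, Mrpl20, against 0.106% of all genes.

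**Figure D2:**
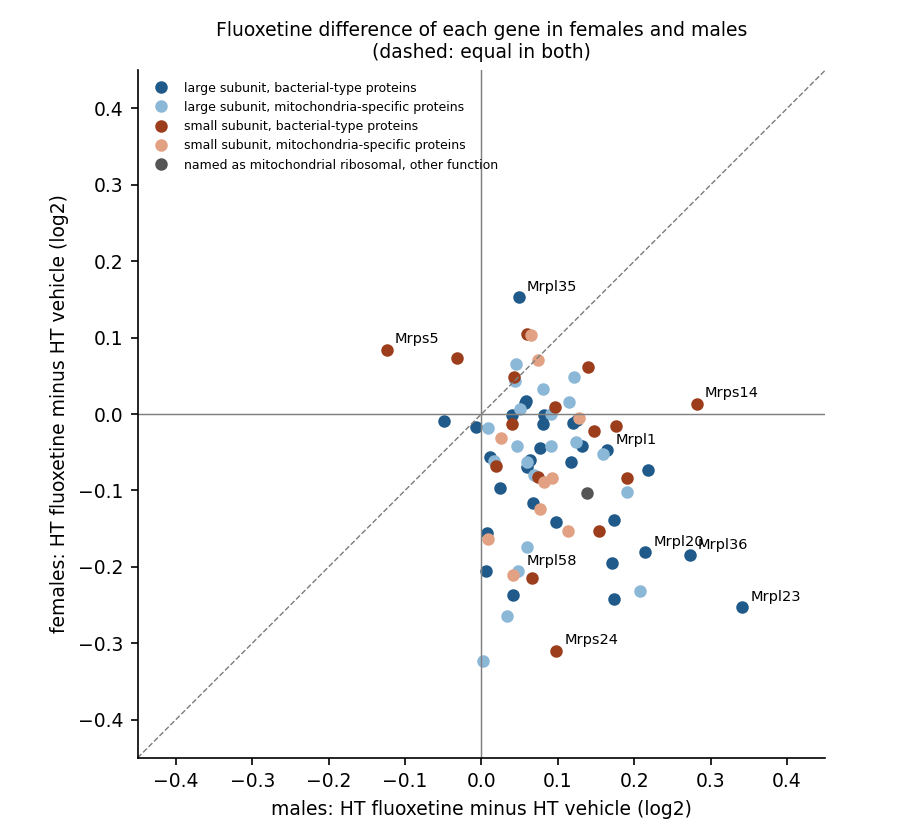
Fluoxetine minus vehicle difference of each of the 78 genes in HT females (vertical) and HT males (horizontal), on the log2 scale; colours mark the class of the protein. 57 genes lie in the lower right, negative in females and positive in males, and Mrps5 and Mrps10 alone lie in the upper left; with the short-gene covariate, which is not drawn, the female median was 0.01.

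Mrpl20, whose bacterial counterpart is needed early in assembly of the large subunit, lies at chr4:155802878-155809975 on the plus strand (GRCm38). It had 872, 898, 970 and 971 normalised counts in HT fluoxetine females, against 1065, 1008 and 1079 in HT vehicle females. In males it had 1068, 1127, 1159 and 1215 under fluoxetine, against 929, 1086 and 942 under vehicle. All fluoxetine females were below all vehicle females, while in males 1 vehicle library lay within the fluoxetine range. The share of all genes with such a gap in females was not counted. The difference was -0.18 ± 0.058 in females (limma adjusted p = 0.209) and 0.21 ± 0.058 in males (adjusted p = 0.303). The female minus male difference between them was -0.40 ± 0.082 (limma adjusted p = 0.0489; edgeR 0.0475; DESeq2 0.00359). The shares of all genes called by edgeR and DESeq2 in this test are not given here, so those values have no background beside them. The limma call was narrow. Leaving out 1 library at a time ended it in 22 of 29 fits, with adjusted p-values of 0.00737 to 0.241 over the 29. It was kept without male 1 of the HT lithium group, male 1 of the HT fluoxetine group, female 2 or male 2 of the HT vehicle group, or male 1, 3 or 4 of the WT group, and lost without any other library. HT lithium libraries lay between 980 and 1113, and WT vehicle libraries between 946 and 1054.

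**Figure D3:**
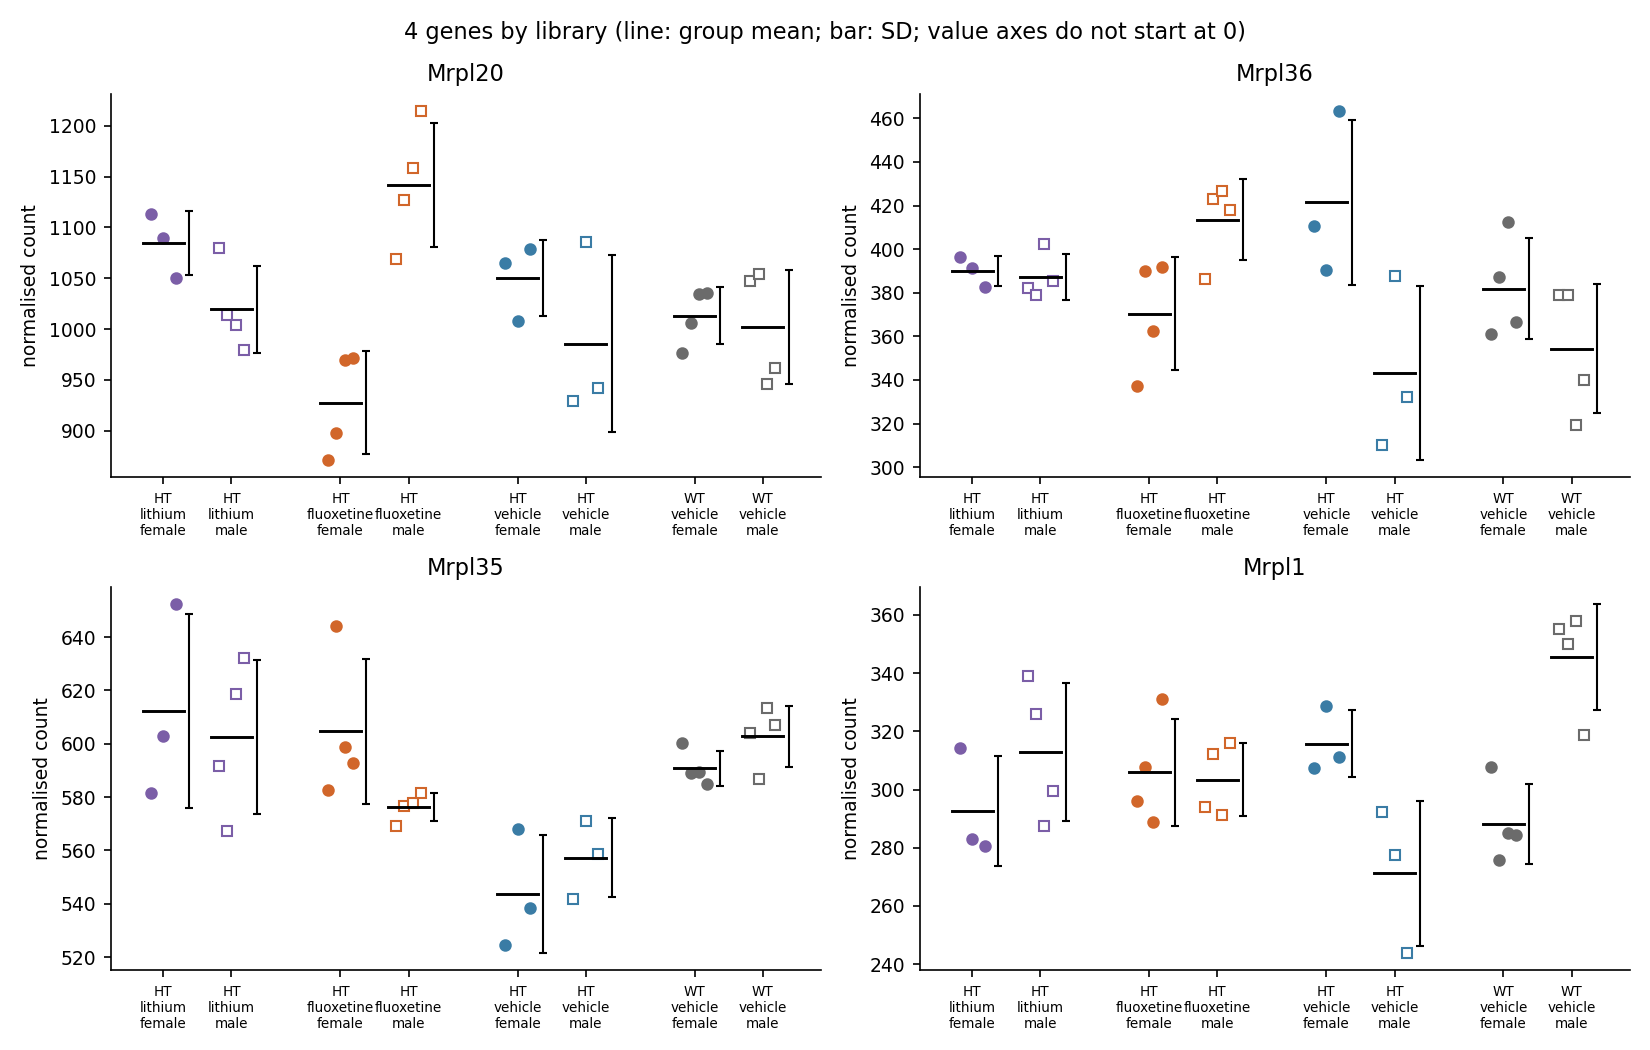
Normalised counts of Mrpl20, Mrpl36, Mrpl35 and Mrpl1 in each library by group, females as filled circles and males as open squares; lines are group means and bars SD, and the value axes do not start at 0. Mrpl20 is at 872 to 971 in HT fluoxetine females and 1068 to 1215 in HT fluoxetine males. Mrpl35 is lower in all HT vehicle libraries than in all WT libraries, and the share of all genes with such a gap was not counted.

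The next members in that test did not pass. Mrpl36, a small zinc-binding protein of the large subunit, had 337, 390, 363 and 392 normalised counts in HT fluoxetine females, against 411, 390 and 463 in HT vehicle females. In males it had 386, 423, 427 and 418 under fluoxetine, against 310, 388 and 332 under vehicle. Groups overlapped in both sexes, by 1 library on each side, and the female minus male difference was -0.46 ± 0.11 (limma adjusted p = 0.0947). Without HT vehicle male 2 it passed (-0.55, limma adjusted p = 0.0228). As given above, the number of all genes called in this test ran from 4 to 50 when 1 library was left out. Mrpl36 shares 30 exon bases with Ndufs6, a respiratory complex I subunit on the opposite strand. Then came Mrpl58 (-0.25 ± 0.073), Mrps21 (-0.27 ± 0.080), Mrpl28 (-0.37 ± 0.113) and Mrps16 (-0.31 ± 0.101), with adjusted p-values of 0.147 to 0.188; these were chosen after their values were seen. Mrpl1 stood at -0.21 ± 0.102, and Mrps5 was the most positive member (0.21 ± 0.076, adjusted p = 0.232).

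In single sexes, the member with the smallest p in females was Mrpl58. The gene lies at chr11:115403752-115412674 on the plus strand (GRCm38). It had 628, 700, 701 and 684 normalised counts in HT fluoxetine females, against 790, 751 and 804 in HT vehicle females, and the groups did not overlap. Its difference was -0.21 ± 0.051 (limma adjusted p = 0.126; DESeq2 0.045). Mrpl55 stood at -0.24 ± 0.072 (adjusted p = 0.193), Mrpl35 at 0.15 ± 0.048 (adjusted p = 0.200) and Mrps5 at 0.08 ± 0.054. In males Mrps14, at chr1:160195215-160202170 on the plus strand, came first, with 648, 693, 643 and 673 under fluoxetine, against 523, 631 and 493.4 under vehicle. No fluoxetine male overlapped a vehicle male, and the difference was 0.28 ± 0.073 (limma adjusted p = 0.291). The shares of all genes without overlap between fluoxetine and vehicle libraries within a sex were not counted. Mrps5 stood at -0.12 ± 0.054 in males, Mrpl10 at -0.05 ± 0.063 and Mrpl1 at 0.16 ± 0.072.

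In every class of protein most members had a lower fluoxetine minus vehicle difference in females than in males. The HT vehicle libraries of both sexes enter this female minus male difference. Negative in the female minus male difference were 28 of 30 large-subunit proteins with bacterial counterparts (median -0.15), 20 of 21 large-subunit proteins specific to mitochondria (-0.12), 12 of 16 small-subunit proteins with bacterial counterparts (-0.12) and 9 of 10 small-subunit proteins specific to mitochondria (-0.17). In all, 70 of 78 were negative with a median of -0.14, against 0.0068 for all genes tested, and 24 had an unadjusted p under 0.05 (23 of them negative) against 13.6% of all genes. Fluoxetine libraries were also set against each other without the vehicle libraries. In 16 members (20.51%) all 4 HT fluoxetine females were below all 4 HT fluoxetine males, against 3.77% of all genes. In 2 members (2.56%) they were above, against 2.94%. The 16 included Mrpl20, Mrpl58, Mrps21, Mrps24 and Mrps36.

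The mean over the 78 genes, each centred over the 29 libraries on the log2 scale, shows the same split by library. It was -0.07 to -0.01 in the 4 HT fluoxetine females, against -0.02 to 0.05 in the 3 HT vehicle females, and 0.01 to 0.13 in the 4 HT fluoxetine males, against -0.07 to 0.03 in the 3 HT vehicle males. Fluoxetine females and fluoxetine males did not overlap. In HT fluoxetine male 4, the highest library, 72 of 78 members were above their own mean, and in HT fluoxetine female 3 and HT vehicle male 1, the lowest by this count, 18 of 78 were. HT lithium females (0.04 ± 0.001) lay above WT females (-0.003 ± 0.019), and HT lithium males (-0.01 ± 0.039) overlapped WT males (-0.01 ± 0.015). These group differences compare with a pooled SD within groups of 0.0344.

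**Figure D4:**
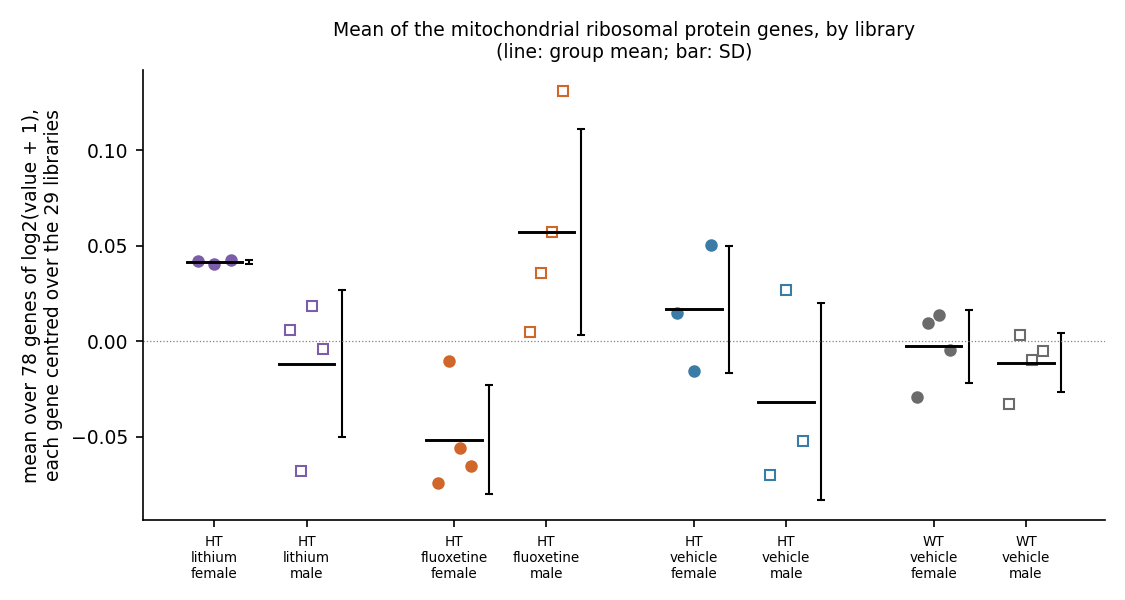
Mean of the 78 genes in each library, as log2(value + 1) centred per gene over the 29 libraries, by group; females are filled circles and males open squares, lines are group means and bars SD. HT fluoxetine females (-0.07 to -0.01) lie below HT fluoxetine males (0.01 to 0.13).

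Other short genes moved with the members in these libraries. The members' exons had a median length of 2394 bases, against 4019 for all genes tested. The difference of medians between 1822 genes of up to 1500 bases and 2741 genes of 8000 bases or more, members excluded, was -0.08 ± 0.049 in HT fluoxetine females and 0.06 ± 0.082 in HT vehicle females, and 0.11 ± 0.115 in HT fluoxetine males and -0.01 ± 0.071 in HT vehicle males (SD). The female minus male difference of fluoxetine minus vehicle was also taken by exon length. Its median was -0.13 for 1842 tested genes of up to 1500 bases and -0.08 for 4302 genes of over 1500 and under 3000 bases. It was 0.01 for 8980 genes of 3000 to under 8000 bases and 0.12 for 2745 genes of 8000 bases or more. In the same bins the members had medians of -0.26 (n = 20), -0.13 (n = 27), -0.09 (n = 27) and -0.09 (n = 4). With the short-gene shift of each library as a covariate, a setting chosen after seeing the data, the members' median was -0.02, 45 of 78 were negative, 4 had an unadjusted p under 0.05 and 0 were called. Mrpl20 then stood at -0.25 (adjusted p = 0.870). The part of the length shift in the result was not tested beyond these values.

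Some large families chosen after their values were seen ran the same way. Nuclear-encoded respiratory chain subunits averaged -0.11 ± 0.061 in HT fluoxetine females and 0.06 ± 0.040 in HT vehicle females, and 0.10 ± 0.070 in HT fluoxetine males and -0.04 ± 0.104 in HT vehicle males. Of these 83 genes, 83 had a negative female minus male difference of fluoxetine minus vehicle, with a median of -0.27, and 6 were called lower. Cytosolic ribosomal protein genes averaged -0.08 ± 0.073 in HT fluoxetine females and 0.04 ± 0.060 in HT vehicle females, and 0.08 ± 0.057 in HT fluoxetine males and -0.04 ± 0.070 in HT vehicle males. Of these 93 genes, 85 were negative, with a median of -0.23, and 1 was called lower. With the striatal and olfactory marker means as covariates the members' median was -0.15 and Mrpl20 stood at -0.40 (limma adjusted p = 0.0379). The part of neighbouring regions in the result was not tested beyond this fit and the next. Without the 11 libraries with high striatal or olfactory markers, which leaves 1 HT fluoxetine male, the median was -0.16 with 63 negative, and Mrpl20 stood at -0.31 (adjusted p = 0.590).

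**Figure D5:**
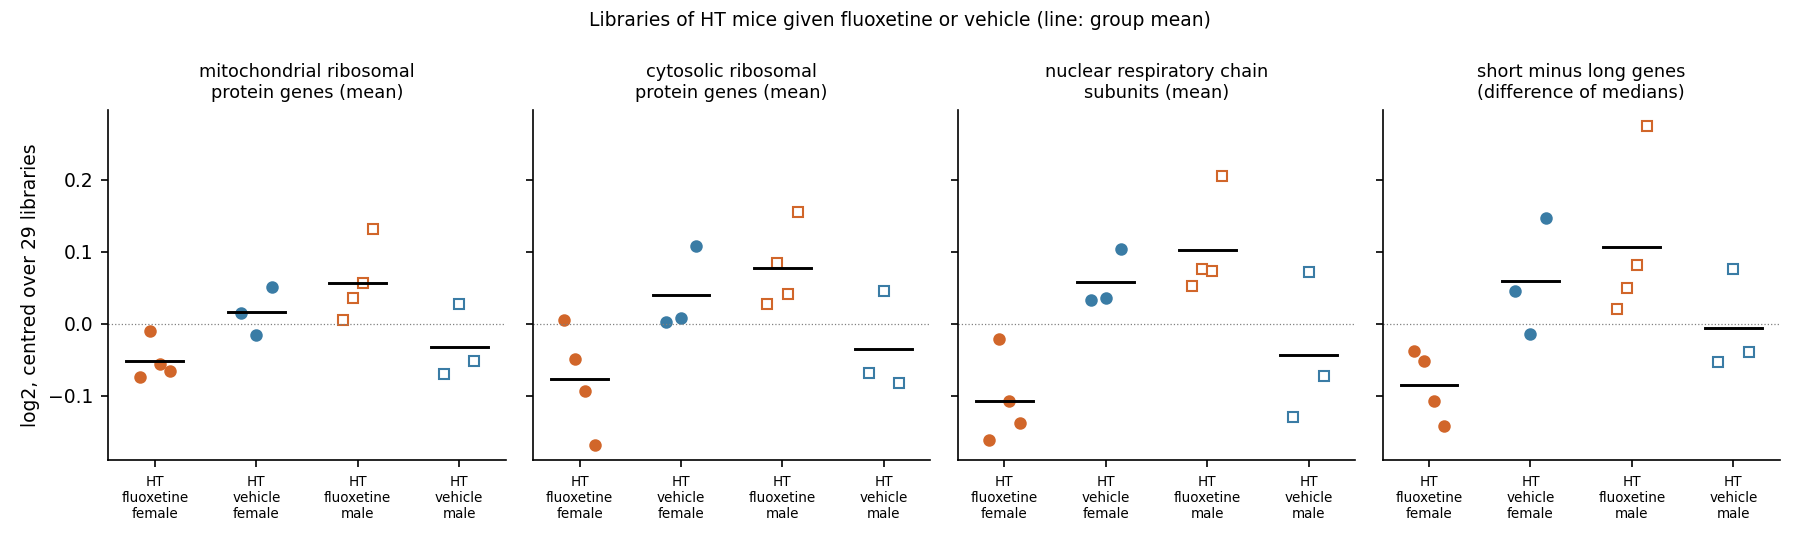
Mean of the mitochondrial ribosomal protein genes, of cytosolic ribosomal protein genes and of nuclear respiratory chain subunits, and the short minus long gene difference, in each library of HT mice given fluoxetine or vehicle (log2, centred over 29 libraries); females are filled circles, males open squares, lines group means. In all 4 panels the group mean of fluoxetine females is lower than that of vehicle females, and that of fluoxetine males higher than that of vehicle males.

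For lithium, the members' medians in females and in males had the same sign. The median of lithium minus vehicle was 0.037 in females (53 positive, 1 member at an unadjusted p under 0.05 against 4.3% of all genes) and 0.029 in males (50 positive, 5 members against 10%). The female minus male difference had a median of 0.012 with 40 positive and 38 negative (2 members against 2.92%). In each, limma called 0 members and 0% of all genes, and edgeR and DESeq2 called 0 members. Mrpl35 was first in females (0.17 ± 0.051, limma adjusted p = 0.996) and Mrpl1 in males (0.21 ± 0.072, adjusted p = 0.381). Mrps16 (0.16), Mrpl57 (-0.16) and Mrpl52 (-0.21) followed in females, and Mrpl35 (0.11), Mrps10 (-0.12) and Mrps26 (-0.10) in males. Between sexes Mrpl1 (-0.32), Mrpl36 (-0.29), Mrpl42 (0.21) and Mrps10 (0.16) had an adjusted p of 0.9997. Whether the fluoxetine and lithium values differ between sexes to a different degree was not tested.

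Averaged over the 4 genotype and treatment groups, females and males did not differ beyond the test. The median female minus male difference was -0.0014 (38 positive, 40 negative); limma called 0 members against 0.257% of all genes, 1 member had an unadjusted p under 0.05 against 8.18%, and edgeR and DESeq2 called 0. That member was Mrpl55, a large-subunit protein with a bacterial counterpart, at 0.12 ± 0.035 (adjusted p = 0.203). Females had 427 to 491 normalised counts under lithium, 380 to 469 under fluoxetine, 459 to 537 in HT vehicle mice and 428 to 451 in WT mice, and males 405 to 489, 406 to 435, 383 to 430 and 379 to 401 in the same groups. All females lay above all males in HT vehicle mice and in WT mice, while the sexes overlapped under lithium and under fluoxetine. The shares of all genes that separate the sexes in HT vehicle or WT mice were not counted. Mrpl18 (0.05), Mrpl39 (-0.06), Mrps31 (-0.06) and Mrpl1 (-0.03) were the other members named.

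The rest of the mitochondrial translation pathway was counted from lists written from general knowledge. In the genotype, lithium and fluoxetine comparisons over both sexes, limma called 0 of 5 ribosomal proteins with other symbols, 0 of 25 assembly and RNA modification factors, 0 of 15 translation factors, 0 of 20 aminoacyl-tRNA synthetase genes, 0 of 12 genes for mitochondrial DNA maintenance and transcription and 0 of 13 mitochondrially encoded proteins; in each list between 0 and 6 genes had an unadjusted p under 0.05, where 12.3%, 11.4% and 7.81% of all genes did in the 3 comparisons. The 13 mitochondrially encoded genes, the products of this ribosome, had a median of -0.19 in HT vehicle minus WT vehicle (6 at an unadjusted p under 0.05, against 12.3% of all genes), 0.10 in lithium minus HT vehicle (2, against 11.4%) and 0.15 in fluoxetine minus HT vehicle (5, against 7.81%). These 3 comparisons share the HT vehicle libraries, and the mean of the 13 varied widely within groups, with SDs of 0.156 in HT lithium, 0.124 in HT fluoxetine, 0.160 in HT vehicle and 0.240 in WT vehicle libraries. The 4 genes with the smallest p over all lists are named for each comparison. For genotype they were Polrmt, the mitochondrial RNA polymerase (0.16 ± 0.041, limma adjusted p = 0.0878), mt-Nd1 (-0.29 ± 0.084, adjusted p = 0.132) and mt-Nd6 (-0.35 ± 0.115, adjusted p = 0.182), both complex I subunits, and Vars2, the mitochondrial valyl-tRNA synthetase (0.11 ± 0.034, adjusted p = 0.149). For lithium they were mt-Nd6 (0.55 ± 0.119), Vars2 (-0.15 ± 0.035), Polrmt (-0.15 ± 0.043) and Tfam, which packages mitochondrial DNA (0.15 ± 0.045), with adjusted p-values of 0.214 to 0.261. For fluoxetine they were Vars2 (-0.12 ± 0.034), Tfam (0.15 ± 0.043), mt-Atp6, an ATP synthase subunit (0.79 ± 0.273), and mt-Nd6 (0.33 ± 0.115), with adjusted p-values of 0.402 to 0.478.

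In the female minus male difference of fluoxetine minus vehicle, the lists of the same pathway did not all share the members' direction. Of the 5 ribosomal proteins with other symbols 4 were negative (median -0.22), among them Dap3 (-0.19 ± 0.067), a GTP-binding protein of the small subunit, and Aurkaip1 (-0.25 ± 0.099). Of 25 assembly and RNA modification factors 12 were negative (median 0.0018), of 15 translation factors 7 (0.0025), of 20 synthetase genes 13 (-0.03) and of 12 genes for DNA maintenance and transcription 6 (0.02). Of the 13 mitochondrially encoded genes 11 were positive, with a median of 0.16, but the one with the smallest p, mt-Co2, a cytochrome oxidase subunit, was negative and by size larger than that median (-1.12 ± 0.429, adjusted p = 0.247). None of these genes was called by limma, and the smallest adjusted p-values were those of Mtg2 (-0.31 ± 0.098, adjusted p = 0.184), a GTPase of ribosome assembly, and Mars2 (0.31 ± 0.105, adjusted p = 0.199), the mitochondrial methionyl-tRNA synthetase. The difference between lists was not tested.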

How the data were processed

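RNA of prefrontal cortex was sequenced with the TruSeq Stranded mRNA kit, per the labels' protocols. The submitters' processing notes name Salmon 0.11.2, R 3.6.0, DESeq2 1.19.11 and build GRCm38; the annotation, strand setting and gene filter are not given in the sources used here. The deposited values are a signal, read counts divided by 1 size factor per library by the authors. Divided by the step of its library, 100.0% of values came out whole (tolerance 0.0001). For female 1, female 2 and male 3 of the fluoxetine group that step is so close to 1 that the recovery is less certain, and edgeR and DESeq2 calls that use them carry this doubt. Totals of these recovered reads were 22.81 to 31.71 M.

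Values were analysed as log2(value + 1) with limma 3.58.1 (R 4.3.3, intensity trend, 8 group means, 21 residual degrees of freedom), two-sided, with Benjamini-Hochberg adjustment over 17881 genes and a threshold of 0.05; differences of low genes are understated on this scale. A gene needed a value of 10 in 3 libraries. Before the real values, the fit was tested on simulated data for the genotype comparison over both sexes alone. The outcome is not given here, and comparisons within or between the sexes were not simulated. edgeR 4.0.16 and DESeq2 1.42.0 on recovered reads, scalings, pseudocounts, filters, moderation, library weights, a replicate block, marker and gene-length covariates and leaving out each library were alternatives. Gene names and exon lengths came from GENCODE M21 on GRCm38, which matched 18227 of 18240 rows. The text names, per comparison, the members with the smallest p in each direction (4 in the main comparisons, 2 in the others), the 6 highest and lowest per length, the 5 most and least variable, and Mrpl1. Members and lists were chosen with earlier results of these data known.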

Additional observations from a re-analysis of the deposited data

Results flagged for a closer look

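Mrpl55, a large-subunit protein gene, stood at 450.5 normalised counts in WT vehicle female 2, against 428.1 to 430.3 in the other 3 WT vehicle females. The value was far from the other 3 only beside their narrow span, and HT fluoxetine females spanned 380 to 469 for this gene. It was flagged in 1 of 50 groups of 4 libraries tested in this way, and chance alone gives about 1 in 20. Groups of 3 libraries were not tested.

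Mrpl20 was listed because its fluoxetine difference was tested between the sexes and passed (-0.395, limma adjusted p = 0.0489). All 4 HT fluoxetine females were below all 4 HT fluoxetine males, an order seen in 3.77% of all genes.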

How the results depend on the processing

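Over all comparisons and settings, counts of called members were within 1.5 times the reported count in 703 cases and not in 32. All comparisons but the fluoxetine difference between the sexes had 0 members called as reported. A count of 0 in both fits was taken as within, so the 703 cases say little about how stable a call was. Medians of members moved by less than the pooled SD of 0.0344 in 715 cases and by more in 4. Medians near 0 still turned sign: they spanned -0.00909 to 0.0117 for genotype, -0.00256 to 0.033 for fluoxetine minus vehicle, -0.00203 to 0.0253 for fluoxetine minus WT, -0.0152 to 0.0296 for the lithium difference between the sexes and -0.00906 to 0.00401 between the sexes, and -0.0641 to 0.0135 in fluoxetine females. The median of the fluoxetine difference between the sexes stayed negative in all 46 settings, between -0.169 and -0.0218, with 45 to 72 members negative. Its number of called members, 1 as reported, was 0 under quantile normalisation, without the intensity trend, with the replicate block, without libraries with high striatal or olfactory markers, with the short-gene shift as a covariate and with only the groups compared, 2 at a threshold of 0.1, and 0 to 2 when 1 library was left out. Over the settings Mrpl20 stood between -0.467 and -0.249, with adjusted p-values of 0.00359 to 0.870, and its call was lost in 28 of 46; the cause was not tested. DESeq2 called 1 member in fluoxetine females, and its share over all genes is not given here. The short-gene covariate, chosen after seeing the data, gave medians of 0.0135 in fluoxetine females, 0.0406 in fluoxetine males and -0.0218 for their difference. Leaving out 1 library put the members called for genotype in males at 0 to 1. The number of all genes called there, 0 as reported, also rose in such fits. The median of the genotype difference between the sexes was then 0.00775 (without HT vehicle male 1) to 0.0676 (without HT vehicle male 2).

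Signs turned for a few members that were not called. Mrpl1 in lithium minus fluoxetine stood at 0.00236 under quantile normalisation, 0.00257 with marker covariates, 0.0101 without high-marker libraries, and -0.0371 to 0.00904 when 1 library was left out. Mrps5 in fluoxetine males (0.00164) and Mrpl1 between the sexes (0.00718) turned without high-marker libraries. Mrpl10 in fluoxetine males spanned -0.092 to 0.00504 when 1 library was left out. With the longest transcript as length, Mrps21 stood at 1384 and Mrpl23 at 35.3 per kb.

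By the replicate numbers of the titles, no pairing of the libraries was seen. The library names number the HT vehicle females differently from the titles, and pairing by those names was not tested. Deviations of same-numbered libraries of different groups had a mean correlation of -0.009 over 94 pairs (-0.264 to 0.311), against 0.0031 over 273 other pairs. With the replicate block, 0 members were called in the fluoxetine difference between the sexes (Mrpl20 adjusted p = 0.0834).

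With 3 or 4 libraries per group and sex, precision is limited. Some arms kept 1 or 2 libraries when high-marker libraries were left out, and a lone library was then assumed to vary like the other groups.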
